A study of Mus musculus with 54 samples.

Results

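The genes examined were 6 members of the membrane-spanning 4-domains subfamily A, namely Ms4a7, Ms4a4a, Ms4a4c, Ms4a6b, Ms4a6c and Ms4a6d, chosen by symbol from the 33280 gene symbols of the count tables. All 6 symbols were present, each with a value in all 54 libraries, some of them 0, and the rule that selects them uses symbols only, although the cluster was proposed with earlier results of these data known.

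The samples were bulk RNA-seq libraries of macrophages taken by sorting from mouse brains from which the choroid plexuses had been removed, in 18 groups of 3 libraries from 24 mice. Microglia (MG), the macrophages of the parenchyma, and subdural CNS-associated macrophages (sdCAMs), those of the leptomeninges and perivascular spaces, came from the same animals. Wild type (WT) and Ccr2 KO mice (Ccr2-/- below, which lack the chemokine receptor by which monocytes leave the bone marrow) were untreated and injected with PBS, given vehicle and then lipopolysaccharide (CTL+LPS), or given BLZ945 and then LPS (BLZ945+LPS). Reporter mice, Ccr2CreERT2/CreERT2:R26tdT/tdT, all received BLZ945 and then LPS or PBS, and gave MG, tdTomato-positive (tdT+) and tdTomato-negative (tdT-) sdCAMs. BLZ945 blocks the CSF1 receptor, on which both macrophages depend, and so empties their niches, which then refill. LPS is a bacterial endotoxin. Injection took place 8 weeks after the end of treatment and cells were harvested 12 h later. In reporter mice tamoxifen, given at 0, 2 and 4 days after treatment, activated a Cre driven from the Ccr2 locus, so tdT marks cells that expressed Ccr2 at that time and their descendants, whereas tdT- cells may also hold cells of that origin that did not recombine. No reporter mouse was left without BLZ945, and WT and Ccr2-/- mice given BLZ945 all received LPS. No WT or Ccr2-/- mouse was given vehicle and then PBS. In these mice the LPS comparisons set CTL+LPS against untreated mice given PBS, so vehicle and LPS cannot be told apart. The ages of the mice were not given in the labels.

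MS4A proteins cross the membrane several times, and several associate with immune receptors at the cell surface. The best known are CD20 (Ms4a1) of B cells and the beta chain of the high-affinity IgE receptor (Ms4a2) of mast cells. The myeloid members lie in one cluster on chromosome 19. MS4A4A of human macrophages associates with the fungal receptor Dectin-1, Ms4a6d has been described in a complex with VSIG4 on mouse macrophages, and Ms4a7 is used as a marker that separates border macrophages from MG. Variants near the human MS4A4A and MS4A6A genes are associated with the risk of Alzheimer disease. Ms4a6b, Ms4a6c and Ms4a6d are the mouse relatives of human MS4A6A, and what their products do in brain macrophages is less well described.

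The sequences upstream of the genes are shown because the members responded unlike each other and because those of Ms4a6b and Ms4a6c share a long run of bases. RefSeq (GRCm38.p6) gave promoters for 5 of the 6 members, with 2 for Ms4a7 and none for Ms4a6d, and the 250 bases before the start were searched on both strands. In Ms4a4a (chr19:11375238-11375487, plus strand), capitals mark a match to an NF-kappaB-type motif from position -247 to -238. In the second promoter of Ms4a7 (chr19:11334696-11334945, minus strand), they mark a match to the AP-1 motif TGANTCA from position -81 to -75. In Ms4a6b (chr19:11518309-11518558) and Ms4a6c (chr19:11469118-11469367), both on the plus strand, they mark the longest run of bases that both promoters share.
Ms4a4a: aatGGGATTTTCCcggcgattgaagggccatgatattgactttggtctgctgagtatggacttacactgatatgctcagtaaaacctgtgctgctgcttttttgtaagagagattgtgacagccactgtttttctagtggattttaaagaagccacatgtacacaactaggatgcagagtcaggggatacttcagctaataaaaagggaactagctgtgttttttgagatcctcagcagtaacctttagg
Ms4a7: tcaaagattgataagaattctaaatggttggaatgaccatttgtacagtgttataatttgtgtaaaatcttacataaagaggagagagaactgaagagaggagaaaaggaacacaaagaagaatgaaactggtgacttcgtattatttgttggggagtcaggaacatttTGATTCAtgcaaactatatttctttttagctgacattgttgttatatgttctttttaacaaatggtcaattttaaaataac
Ms4a6b: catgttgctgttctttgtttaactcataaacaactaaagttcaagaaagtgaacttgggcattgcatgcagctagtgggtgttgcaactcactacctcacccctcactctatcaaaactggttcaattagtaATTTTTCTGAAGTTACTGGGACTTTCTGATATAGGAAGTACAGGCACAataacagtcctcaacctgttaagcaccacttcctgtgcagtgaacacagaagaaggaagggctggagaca
Ms4a6c: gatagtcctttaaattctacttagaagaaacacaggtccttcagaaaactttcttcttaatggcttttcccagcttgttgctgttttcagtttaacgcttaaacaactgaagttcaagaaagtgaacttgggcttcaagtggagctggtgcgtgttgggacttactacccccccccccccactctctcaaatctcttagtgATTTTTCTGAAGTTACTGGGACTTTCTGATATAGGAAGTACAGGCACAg

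The shared run of Ms4a6b and Ms4a6c was 48 bases long, and 153 of 173 aligned bases (88.4%) were identical. Among all other pairs of the 6 promoters the longest shared run was 7 to 9 bases. No other match was found to the motifs searched, which were GAAANNGAAA (in 2.98% of the 32851 mouse promoters of the same length), TTCNNNGAA (7.02%), TGANTCA (6.75%), GAGGAAG (10.6%) and an NF-kappaB-type motif (7.25%). Sharing between the transcripts of Ms4a6b and Ms4a6c, which bears on how reads can be assigned, covered a small part of them. In GENCODE M21 transcripts, 117 of the 2001 stretches of 50 bases in Ms4a6c, the read length, also occurred in Ms4a6b. A further overlap was with BE692007, a gene annotated on the strand opposite Ms4a6c with no symbol of its own in the count tables, in which 993 of the 2001 stretches of Ms4a6c and 82 of the 4561 of Ms4a6b occurred. The counting was not stated to use strand, so reads of Ms4a6c and of that transcript cannot be told apart. Shared stretches made up 8.19% of Ms4a4c, mostly with Ms4a4b, and 3.57%, 2.54% and 0.306% of Ms4a6b, Ms4a6d and Ms4a7, while Ms4a4a had 0.

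Library totals ran from 1705930 to 11330781 counts. The knockout could be checked only weakly on Ccr2, since WT sdCAMs held 16.8 to 43 CPM untreated but 0 to 0.26 after CTL+LPS, and Ccr2-/- sdCAMs held 2.46 to 5.59 untreated and 2.92 to 5.32 after CTL+LPS, above the WT range. In untreated MG the Ccr2-/- range (5.1 to 7.1) lay within the WT range (3.87 to 10.6). Whether these counts fall in the deleted part of the gene is not given in the sources used here, so they check the label in untreated sdCAMs at most. The cell type labels were borne out by fixed markers, as 7 MG markers summed to at least 9432 CPM in every MG library and 6 sdCAM markers to at most 28.8 there, against 1108 to 18225 in sdCAMs. The lowest of these was the tdT+ library of mouse 5 after LPS, whose MG markers summed to 12740.1 CPM and, in the median over markers, reached 82% of that mouse's own MG. For the tdT- library of mouse 1 and the tdT+ library of mouse 7, both after LPS, the sequencing index in the name was the one listed for the other. Sex-linked transcripts disagreed within 2 of 24 mice as the libraries are named and within 0 when these 2 are exchanged. Member calls within tdT+ or tdT- sdCAMs after LPS, and between the 2, are therefore given as named, exchanged and without both. Other values by tdT state after LPS are as named unless said otherwise. The labels put an unexplained IEG correction on 6 WT sdCAM libraries, namely those of mice 1, 4 and 6 (CTL+LPS), 9 and 14 (untreated) and 12 (BLZ945+LPS). A single acute phase gene, Saa3, took 23% to 35.8% of the counts of mice 1, 4 and 6 and 21% of mouse 12, but 2.39% and 1.79% in the unmarked BLZ945+LPS libraries of mice 8 and 11. It took 14.5% to 28.3% of tdT- libraries after LPS, as named. Scaling was therefore by TMM (trimmed mean of M values). Scaling by library totals alone moved the median of all genes by -1.92 on the log2 scale for sdCAMs against MG after LPS in WT mice, by -1.54 for LPS in WT sdCAMs and by 1.41 for BLZ945 in WT sdCAMs.

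**Figure D1:**
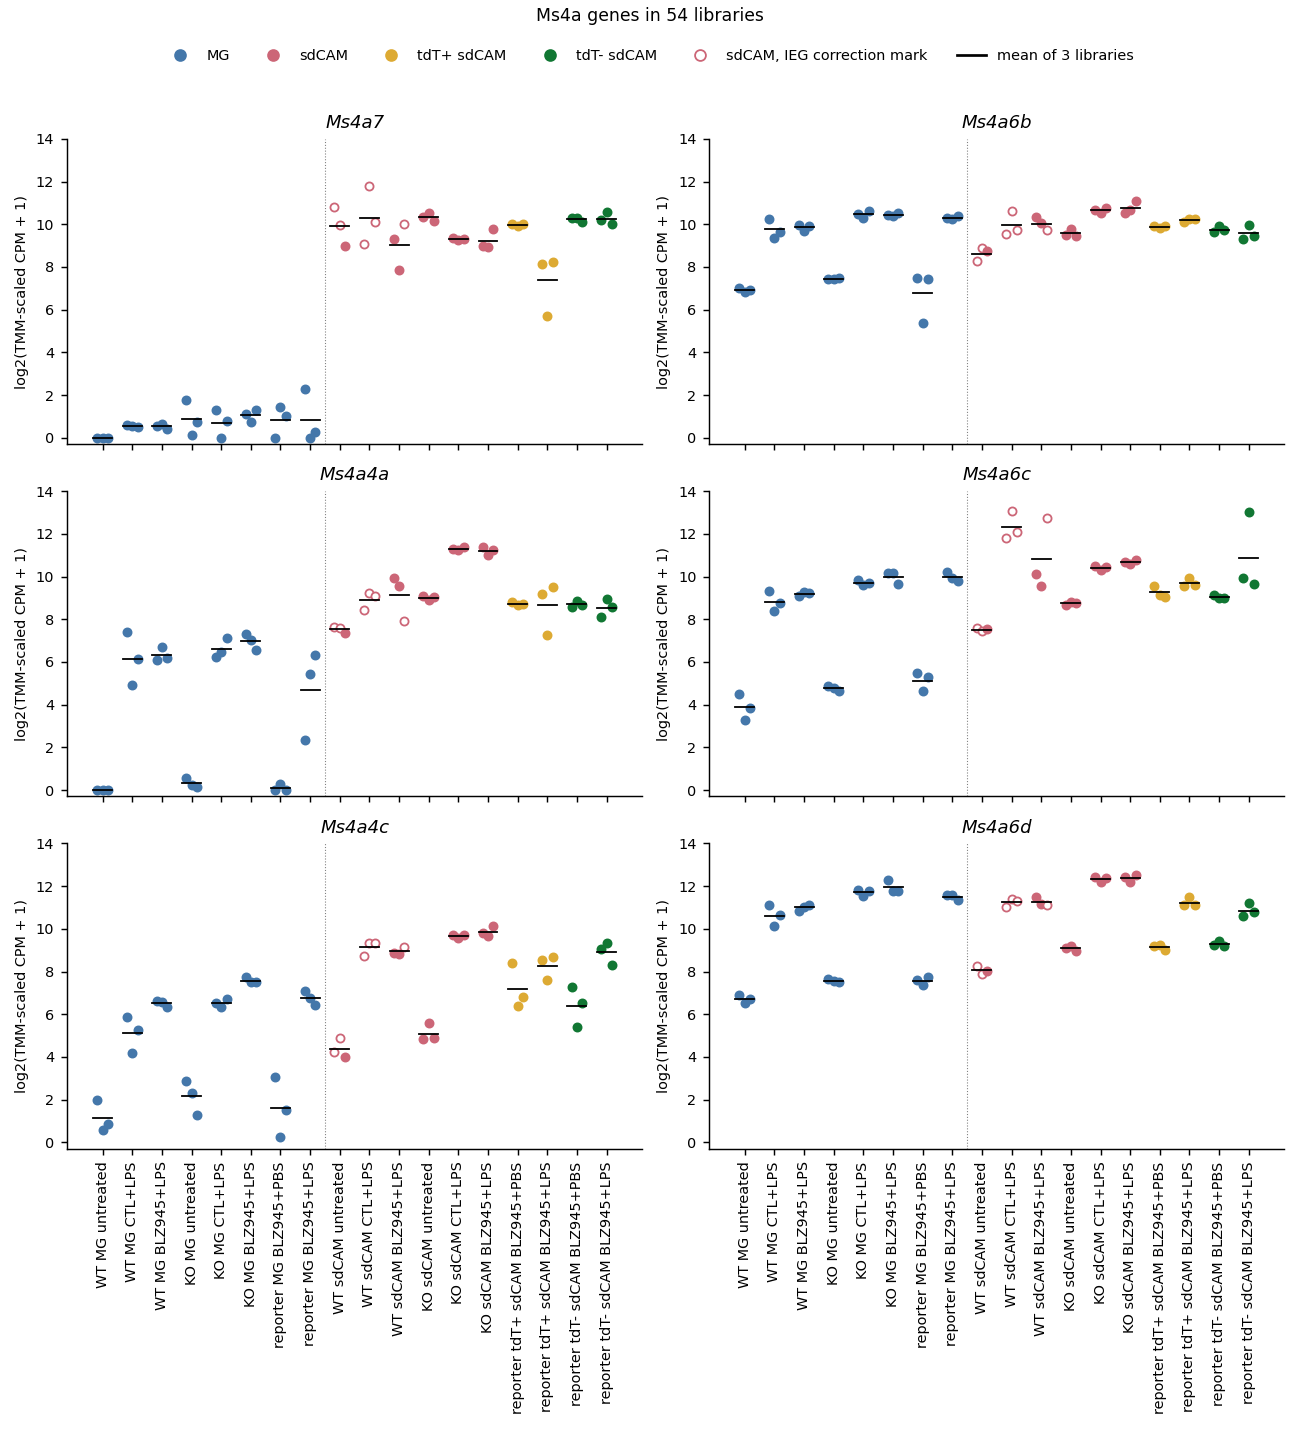
Level of each gene in all 54 libraries, as log2(TMM-scaled CPM + 1), by group on the x axis, with MG groups left of the dotted line and sdCAM groups right of it. Each point is 1 library, open points are sdCAM libraries with the IEG correction mark, and bars are means of 3 libraries. Ms4a7 stayed at or below 3.922 CPM in all 24 MG libraries, while the other 5 genes lay higher in every MG group after LPS than in the MG group of that genotype without it.

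Levels below are TMM-scaled CPM, the counts scaled to a fixed library size, listed by mouse in the order of the labels, and log2 fold changes are given with their standard error. A gene was called where the adjusted p was under 0.05 and the log2 fold change over 1 in size. How many of all genes had groups that did not overlap, or the same direction in every mouse, was not counted. Such statements below only describe the values printed. In bulk samples, fewer cells of a type and less RNA per cell cannot be told apart.

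Without LPS, all 6 genes were higher in sdCAMs than in MG in each of the 3 kinds of mice, by amounts that ran from 1.37 to 1.63 on the log2 scale for Ms4a6d to a near absence of Ms4a7 and Ms4a4a from MG. All 6 were called higher in WT mice, where 11.9% of 13136 genes were, in Ccr2-/- mice, where 8.53% were, and in reporter mice, where 6.09% were. The median log2 fold change of the 6 was 3.76, 3.57 and 4.65, against 0.03, 0 and 0.09 over all genes tested.

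Ms4a7 had 0 counts in the 3 untreated WT MG libraries and 1777, 999.4 and 510 CPM in WT sdCAMs, which is at least 2767-fold higher in plain CPM against a floor of 3 counts per library. In Ccr2-/- mice it was 2.385, 0.08566 and 0.6584 CPM in MG and 1306, 1454 and 1135 CPM in sdCAMs (log2 fold change 10.3, SE 0.614, adjusted p = 3.43e-10). In reporter mice after PBS it was 0, 1.755 and 0.994 CPM in MG, 1041, 975.8 and 1028 CPM in tdT+ sdCAMs and 1258, 1263 and 1106 CPM in tdT- sdCAMs. No MG library of any group came near any sdCAM library.

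Ms4a4a was also at 0 counts in untreated WT MG and stood at 195.5, 193.2 and 162 CPM in WT sdCAMs, at least 490.4-fold higher. In Ccr2-/- mice the 3 MG libraries held 8 counts in all, and sdCAMs had 549.3, 472.1 and 519.5 CPM. In reporter mice the 3 MG libraries after PBS held 2 counts in all, and the 6 sdCAM libraries had 383.4 to 468.3 CPM. The other 4 genes were measurable in resting MG and overlapped in no kind of mouse with sdCAMs.

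Ms4a4c was low in both cells of untreated WT mice, with 2.975, 0.5088 and 0.8083 CPM in MG and 17.91, 28.41 and 14.88 CPM in sdCAMs (log2 fold change 3.86, SE 0.585, adjusted p = 0.000301). Ms4a6c had 21.67, 8.649 and 13.47 CPM in WT MG and 191.6, 173.3 and 183 CPM in WT sdCAMs (3.66, SE 0.706, adjusted p = 0.00214). The same 2 genes differed by 3.1 and 4.04 in Ccr2-/- and by 5.31 and 4 in reporter mice. Ms4a6b and Ms4a6d were the members with the smallest differences between the cells.

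Ms4a6b was 130.4, 114.3 and 119.2 CPM in WT MG and 307.6, 465.6 and 430.3 CPM in WT sdCAMs (log2 fold change 1.74, SE 0.373, adjusted p = 0.00454). Ms4a6d was 120.3, 90.87 and 104.4 CPM in WT MG and 307.2, 236.7 and 258.7 CPM in WT sdCAMs (1.37, SE 0.353, adjusted p = 0.014). With the mouse as a block, the WT difference of Ms4a6d was 1.36 with an adjusted p of 0.0573, and by library totals Ms4a6b and Ms4a6d had 1.43 (adjusted p = 0.0706) and 1.02 (adjusted p = 0.17). In Ccr2-/- mice Ms4a6b and Ms4a6d differed by 2.15 (SE 0.151) and 1.52 (SE 0.15), and in reporter mice by 2.78 (SE 0.399) and 1.63 (SE 0.276).

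**Figure D2:**
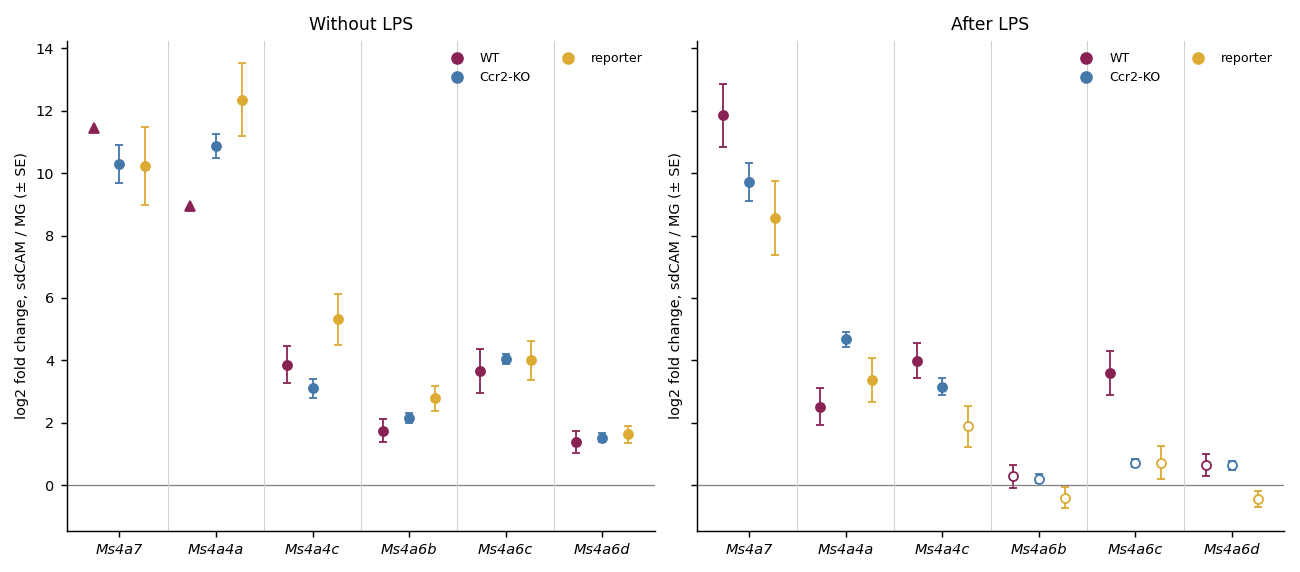
Log2 fold change of sdCAMs over MG without LPS (left) and after LPS (right) for each gene on the x axis, in WT, Ccr2-/- (drawn as Ccr2-KO) and reporter mice. Points with bars are fitted values ± SE, filled where called, and triangles are lower bounds where MG had 0 counts. All 6 genes lay above 0 without LPS, whereas after LPS Ms4a6b lay between -0.41 and 0.28.

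In MG, Ms4a4a, Ms4a4c, Ms4a6b, Ms4a6c and Ms4a6d were higher after LPS than without it, whereas Ms4a7 stayed near 0. In WT and Ccr2-/- mice that comparison also includes the vehicle. All 5 were called higher in WT MG, where 9.08% of 11789 genes were, and in Ccr2-/- MG, where 10.5% of 11558 genes were. The member medians were 4.74 and 4.37 on the log2 scale, against 0.02 and 0 over all genes.

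Ms4a6d reached the highest level of the 5, going from 120.3, 90.87 and 104.4 CPM in untreated WT MG to 2221, 1118 and 1589 CPM after CTL+LPS (log2 fold change 3.97, SE 0.235, adjusted p = 6.23e-07). In Ccr2-/- MG it went from 198.7, 190.2 and 178.7 CPM to 3672, 2934 and 3512 CPM (4.18, SE 0.169, adjusted p = 1.45e-09). The groups did not overlap in either genotype.

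Ms4a6c had a larger fold change from a lower start, from 21.67, 8.649 and 13.47 CPM to 648, 331 and 437.9 CPM in WT MG (5.02, SE 0.339, adjusted p = 1.51e-06). In Ccr2-/- MG it rose from 28.02, 26.64 and 23.7 CPM to 910.9, 779.5 and 837.3 CPM (5.03, SE 0.177, adjusted p = 5.02e-10). Ms4a6b rose from 130.4, 114.3 and 119.2 CPM to 1231, 659.6 and 803.5 CPM in WT MG (2.89, SE 0.211, adjusted p = 2.76e-06) and by 3.05 (SE 0.13) in Ccr2-/- MG. The lowest LPS library lay above the highest untreated one for both genes and genotypes.

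Ms4a4a went from 0 counts to 167.7, 28.91 and 69.55 CPM in WT MG, at least 316-fold higher in plain CPM (adjusted p = 4.63e-05). In Ccr2-/- MG, 8 counts over 3 untreated libraries faced 73.89, 87.46 and 138.2 CPM after LPS, a ratio of pooled counts of 404 (95% counting interval 205 to 937). Ms4a4c went from 2.975, 0.5088 and 0.8083 CPM to 58.02, 16.97 and 37.69 CPM in WT MG (4.74, SE 0.546, adjusted p = 8.52e-05) and rose by 4.56 (SE 0.329) in Ccr2-/- MG. Both genes were lowest in mouse 4 among the 3 WT mice given LPS, as were Ms4a6b, Ms4a6c and Ms4a6d.

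Ms4a7 was at 0.4973, 0.449 and 0.4282 CPM in WT MG after LPS, from 5 or 6 counts per library, too few to be tested. In Ccr2-/- MG its change was -0.5 (SE 1.18, adjusted p = 0.787). Summed sdCAM markers were 12.1 to 24.3 CPM in WT MG after LPS and 13.4 to 15.2 CPM before it, and of the 2 that could be tested 1 was called higher and 1 lower. The 7 MG markers summed to 35958 to 37480.2 CPM before LPS and 9432 to 15211 CPM after it, and 6 monocyte markers to 4.67 to 11.6 CPM before and 76.3 to 107 CPM after it. The part of these in the results was not tested.

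In repopulated MG of reporter mice, only libraries after BLZ945 were compared, and 3 of 5 tested members were called higher, against 0.662% of 10882 genes. Ms4a6d rose from 192.9, 162.5 and 217.1 CPM after PBS to 3089, 3048 and 2573 CPM after LPS (3.9, SE 0.329, adjusted p = 0.00609). Ms4a6c rose from 43.97, 23.64 and 37.67 CPM to 1202, 964.8 and 878.4 CPM (4.83, SE 0.396, adjusted p = 0.00609). Ms4a6b had 178.4, 40.78 and 169.5 CPM after PBS and 1273, 1198 and 1353 CPM after LPS (3.29, SE 0.563, adjusted p = 0.0467).

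The other 2 members did not pass in repopulated MG. Ms4a4a had 2 counts over the 3 PBS libraries and 4.129, 42.27 and 79.46 CPM after LPS (adjusted p = 0.0652), and Ms4a4c had 7.48, 0.2065 and 1.889 CPM after PBS and 135.8, 106.2 and 86.31 CPM after LPS (5.08, SE 1.1, adjusted p = 0.0828). Without the PBS library of mouse 175 both passed, at adjusted p = 0.0322 for Ms4a4a and 0.0138 for Ms4a4c. The call of Ms4a6b was lost with median-of-ratios scaling (adjusted p = 0.0505), by library totals (0.0611) and without any 1 of LPS mice 1, 5 and 7 and PBS mice 174 and 177 (0.128 to 0.237). Without LPS mouse 1 or LPS mouse 5, Ms4a6c and Ms4a6d had adjusted p of 0.0517 to 0.0529 and no member was called.

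**Figure D3:**
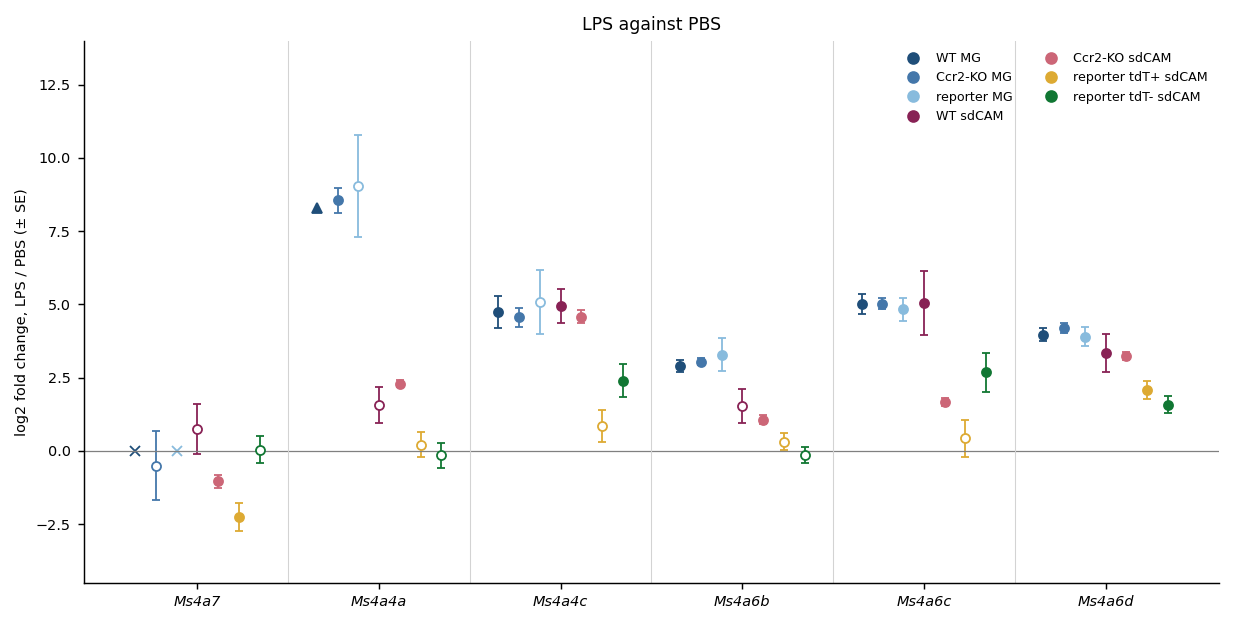
Log2 fold change of LPS over PBS for each gene on the x axis in 7 populations of sdCAMs and MG. In WT and Ccr2-/- mice the LPS mice also had vehicle, and the PBS mice were untreated. Points with bars are fitted values ± SE, filled where called. Triangles are lower bounds where the PBS group had 0 counts, and crosses at 0 mark a gene with too few counts to be tested. Ms4a6d rose in all 7 populations, by 1.58 to 4.18.

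In sdCAMs of WT and Ccr2-/- mice, Ms4a4c, Ms4a6c and Ms4a6d were higher after CTL+LPS than in untreated mice. Ms4a7 was not called higher in either genotype. In Ccr2-/- sdCAMs 5 of 6 members were called higher, against 10.9% of 11941 genes, and Ms4a7 was called lower, against 10.6%. In WT sdCAMs 3 of 6 were called higher, against 3.7% of 10504 genes, and of all genes called there 58.6% were higher, or 11% by library totals. The biological coefficient of variation, the spread between libraries after counting error, was 0.7 in WT and 0.453 in Ccr2-/- sdCAMs but 0.257 and 0.264 in MG.

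Ms4a4c rose in WT sdCAMs from 17.91, 28.41 and 14.88 CPM to 425.5, 644.4 and 650.2 CPM (4.94, SE 0.591, adjusted p = 0.00208). Its counterpart in Ccr2-/- sdCAMs rose from 27.3, 46.64 and 28.17 CPM to 830.5, 768.6 and 849.6 CPM (4.58, SE 0.231, adjusted p = 4.07e-08). No library of the untreated groups reached the LPS groups.

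Ms4a6d rose in WT sdCAMs from 307.2, 236.7 and 258.7 CPM to 2114, 2724 and 2566 CPM (3.34, SE 0.654, adjusted p = 0.017), a change of 1.90 with an adjusted p of 0.079 by library totals. The Ccr2-/- cells went from 555.4, 580.6 and 495.3 CPM to 5517, 4727 and 5294 CPM (3.25, SE 0.134, adjusted p = 1.08e-08). It was, after LPS in these Ccr2-/- cells, the member with the highest CPM in each library.

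Ms4a6c differed between the genotypes in its TMM-scaled level after LPS. In WT sdCAMs it went from 191.6, 173.3 and 183 CPM to 3555, 8677 and 4339 CPM (5.05, SE 1.08, adjusted p = 0.0229), and in Ccr2-/- sdCAMs from 402.3, 452.1 and 438.8 CPM to 1434, 1273 and 1409 CPM (1.67, SE 0.124, adjusted p = 9.08e-07). The 2 ranges after LPS did not overlap in TMM-scaled CPM. In plain CPM they did, with means of 2163 (SD 949) in WT and 1321 (SD 92.3) in Ccr2-/- sdCAMs. The difference between genotypes in the response of Ms4a6c to LPS was not tested. The study's methods name a ComBat-seq correction across WT and Ccr2-/- data, its part in levels set across these genotypes was not tested, and the 3 WT libraries were the marked ones in which Saa3 took 23% or more of the counts.

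Ms4a4a had 195.5, 193.2 and 162 CPM in untreated WT sdCAMs and 350, 601.2 and 536.5 CPM after LPS (1.57, SE 0.604, adjusted p = 0.136). In Ccr2-/- sdCAMs it rose from 549.3, 472.1 and 519.5 CPM to 2538, 2395 and 2676 CPM (2.3, SE 0.133, adjusted p = 1.16e-07). Ms4a6b had 307.6, 465.6 and 430.3 CPM and then 749, 1580 and 844.9 CPM in WT sdCAMs (1.53, SE 0.584, adjusted p = 0.13). It rose from 731.4, 876.2 and 701.1 CPM to 1615, 1483 and 1760.4 CPM in Ccr2-/- sdCAMs (1.07, SE 0.162, adjusted p = 0.000304), which by library totals was 0.92, under the fold limit. In WT sdCAMs both genes passed with DESeq2 (adjusted p = 0.0349 for Ms4a4a and 0.0095 for Ms4a6b) or with the IEG correction mark as a covariate in edgeR (0.0453 and 0.0482). Their rise in WT sdCAMs depended on scaling. In plain CPM the means untreated and after LPS were 182 and 201 for Ms4a4a and 409 and 414 for Ms4a6b.

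Ms4a7 had 1777, 999.4 and 510 CPM in untreated WT sdCAMs and 540.2, 3505 and 1086 CPM after LPS, overlapping ranges (0.75, SE 0.865, adjusted p = 0.636). In Ccr2-/- sdCAMs it fell from 1306, 1454 and 1135 CPM to 657.2, 607.1 and 636.8 CPM (-1.04, SE 0.211, adjusted p = 0.00261), and without untreated mouse 3m it was -0.94, under the fold limit. The 6 sdCAM markers of these Ccr2-/- libraries summed to 17053 to 18225 CPM untreated and 6404 to 6968 CPM after LPS, with 4 of 6 called lower and a median log2 fold change of -1.18. Their MG markers summed to 4588 to 6477 and then 1079 to 1488 CPM, and dendritic cell markers to 421 to 639.9 and then 60 to 145 CPM. In WT mice the 7 MG markers of WT sdCAM libraries summed to 4655 to 13224 CPM untreated and 353 to 1060.3 CPM after LPS, and there 4 of 6 neutrophil markers had counts after LPS, summing to 129 to 1129 CPM against 0 to 79.4 untreated. The part of these in the results was not tested. In WT sdCAMs the calls of Ms4a6c were lost without CTL+LPS mouse 4 (adjusted p = 0.0556), those of Ms4a6c and Ms4a6d without CTL+LPS mouse 6 (both 0.069) and without any 1 of the untreated mice 9, 14 and 15 (0.0678 to 0.115).

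After LPS, sdCAMs still exceeded MG for Ms4a7 and Ms4a4a in all 3 kinds of mice and for Ms4a4c in WT and Ccr2-/- mice, while Ms4a6b passed the test in no kind of mouse. In WT mice 4 of 6 members were called higher in sdCAMs, against 19.1% of 13136 genes, in Ccr2-/- mice 3, against 9.29%, and in reporter mice 2, against 5.33%. Ms4a7 differed by 11.85 (SE 1.01) in WT, 9.72 (SE 0.609) in Ccr2-/- and 8.57 (SE 1.18) in reporter mice. Ms4a4a differed by 2.52 (SE 0.586), 4.67 (SE 0.25) and 3.36 (SE 0.701), in WT mice by 0.77 with an adjusted p of 0.304 by library totals. Ms4a4c differed by 3.98 (SE 0.56) in WT and 3.16 (SE 0.285) in Ccr2-/- mice, and by 1.88 in reporter mice (SE 0.671, adjusted p = 0.0883), where it passed with the mouse as a block (1.90, adjusted p = 0.0168).

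Ms4a6c was 3555, 8677 and 4339 CPM in WT sdCAMs and 648, 331 and 437.9 CPM in MG of the same mice (3.59, SE 0.701, adjusted p = 0.00114), but in Ccr2-/- mice the difference was 0.71 (SE 0.137, adjusted p = 0.00062), under the fold limit. For Ms4a6d the difference was 0.64 in WT mice (adjusted p = 0.155), 0.63 in Ccr2-/- (adjusted p = 0.00336) and -0.44 in reporter mice (adjusted p = 0.302). For Ms4a6b it was 0.28 (95% interval -0.43 to 0.99), 0.2 (-0.08 to 0.48) and -0.41 (-1.07 to 0.25). In WT mice the direction of Ms4a6b and Ms4a6d depended on scaling, since by library totals they were lower in sdCAMs, by -1.53 and -1.14.

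The interaction of cell type with LPS tested whether the log2 fold change in sdCAMs differed from that in MG, with negative values for a smaller one in sdCAMs. Over either direction, 1.32% of genes were called in WT, 6.88% in Ccr2-/- and 2.15% in reporter mice. Of the members, 1, 3 and 4 were called, all negative. Ms4a4a was called in all 3 kinds of mice (-10.71, SE 1.2, in WT, -6.2, SE 0.453, in Ccr2-/- and -9, SE 1.19, in reporter mice), values that rest on 0 to 8 counts in resting MG. The fitted size in WT mice depends on the constant added to a count of 0 and is not a measured factor.

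Ms4a6b had an interaction of -1.95 (SE 0.207, adjusted p = 5.66e-06) in Ccr2-/- and -3.19 (SE 0.503, adjusted p = 0.00189) in reporter mice, and -1.46 (adjusted p = 0.147) in WT mice. Ms4a6c had -3.33 (SE 0.2, adjusted p = 6.21e-09) in Ccr2-/- and -3.28 (SE 0.742, adjusted p = 0.0242) in reporter mice but -0.07 (95% interval -1.79 to 1.65) in WT mice. The value of Ms4a6c in reporter mice had an adjusted p of 0.0604 with the 2 libraries of crossed index exchanged, and of 0.0567 and 0.0546 without MG of mouse 1 or 5 after LPS. For Ms4a6d the interaction was -2.07 (SE 0.365, adjusted p = 0.00424) in reporter mice, -0.89 (adjusted p = 0.01) in Ccr2-/- and -0.73 (adjusted p = 0.457) in WT mice. Ms4a4c, by contrast, had 0.12 (-1.58 to 1.82) in WT and 0.06 (-0.8 to 0.91) in Ccr2-/- mice. In reporter mice it had -3.42 (adjusted p = 0.0547), and -3.90 (adjusted p = 0.00518) with the mouse as a block.

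BLZ945 treatment 8 weeks earlier was compared with vehicle in mice that all received LPS. This sets levels after LPS against each other. With no BLZ945+PBS group in these mice, a changed response to LPS cannot be told apart from a changed resting level. These comparisons use the same CTL+LPS libraries as the LPS comparisons. No member was called in any of the 4 populations. Over all genes, 0.0763% were called in WT MG, 0.0173% in Ccr2-/- MG and 0% in WT and in Ccr2-/- sdCAMs, while 758 and 998 genes of the latter had an unadjusted p under 0.05 and DESeq2 called 11 and 63.

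Ms4a4c had the largest difference of the members in MG. It was 98.8, 95.65 and 79.57 CPM in repopulated WT MG against 58.02, 16.97 and 37.69 CPM in CTL (1.29, SE 0.416, adjusted p = 0.563). In Ccr2-/- MG it was 212.7, 179.9 and 179.2 CPM against 91.08, 79.55 and 105 CPM (1.04, SE 0.268, adjusted p = 0.463). The edgeR test was not passed in either genotype, and DESeq2 called it in Ccr2-/- MG (adjusted p = 0.0187). The other members tested in MG lay between -0.12 and 0.34 in WT and, Ms4a7 with its few counts aside, between -0.02 and 0.34 in Ccr2-/- mice.

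In Ccr2-/- sdCAMs the 6 differences lay between -0.12 and 0.23, with 95% intervals that stayed within -0.45 and 0.58. In WT sdCAMs they lay between -1.5 and 0.32 with wider errors. Ms4a6c there had 1129.6, 749.4 and 6782 CPM in mice 8, 11 and 12 against 3555, 8677 and 4339 CPM in CTL (-0.99, SE 0.92, adjusted p = 0.787). This value depended on mouse 12. Without it the difference was -2.64 (adjusted p = 0.0386) and the interaction of BLZ945 with genotype 2.7 (adjusted p = 0.000628), against 1.25 (adjusted p = 0.588) with it. The size of -2.64 also depended on scaling. In plain CPM per kb of exon the mean without mouse 12 was 566, against 1055 in CTL, and in plain CPM mice 8 and 11 overlapped with CTL. The comparison without mouse 12 sets 2 unmarked libraries low in Saa3 against 3 marked ones high in it, so there BLZ945, the IEG correction mark and the share of Saa3 cannot be told apart. No member was called for that interaction in MG or sdCAMs, nor was any gene by edgeR, with 493 and 1332 at an unadjusted p under 0.05 and 0 and 26 called by DESeq2.

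In reporter mice, no member was called between tdT+ and tdT- sdCAMs after PBS, where 0.0236% of 12708 genes (3 genes) were called in either direction, 566 had an unadjusted p under 0.05 and DESeq2 called 81. Ms4a4c had 342, 83.02 and 110.3 CPM in tdT+ and 154.4, 41.48 and 90.03 CPM in tdT- sdCAMs of mice 174, 175 and 177, higher in tdT+ in 3 of 3 mice (0.9, SE 0.541, adjusted p = 1). The other 5 differences lay between -0.26 and 0.22. Of these, Ms4a7 and Ms4a6d were lower and Ms4a6c higher in tdT+ in 3 of 3 mice. The widest interval among these 5 was that of Ms4a6c, -1.02 to 1.46.

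LPS raised Ms4a6d in both populations and lowered Ms4a7 in tdT+ sdCAMs as the libraries are named. In tdT+ sdCAMs 1 of 6 members was called higher, against 7.54%, and 1 lower, against 5.82%. In tdT- sdCAMs 3 of 6 were called higher, against 14.5%. Over both populations together the same number was called higher, against 17% of 11028 genes. That test took both libraries of each mouse as separate, although they are not independent.

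Ms4a6d rose from 595, 608.2 and 513.6 CPM to 2195, 2881 and 2194 CPM in tdT+ sdCAMs (2.08, SE 0.297, adjusted p = 0.00039). In tdT- sdCAMs it rose from 599.6, 696.8 and 586 CPM to 1572, 2336 and 1749 CPM (1.58, SE 0.293, adjusted p = 0.000886). Both calls held with the 2 libraries exchanged, at 1.95 (adjusted p = 0.0112) and 1.73 (adjusted p = 0.0144), and without both, at 2.14 (adjusted p = 0.00161) and 1.68 (adjusted p = 0.00192). By library totals the change in tdT- sdCAMs was 0.76 (adjusted p = 0.0545).

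Ms4a7 had 1041, 975.8 and 1028 CPM in tdT+ sdCAMs after PBS and 281.6, 51.85 and 299.7 CPM after LPS (-2.27, SE 0.479, adjusted p = 0.00588), whereas in tdT- sdCAMs it had 1258, 1263 and 1106 CPM and 1194, 1528 and 1019 CPM (0.04, SE 0.457, adjusted p = 0.961). The flat level in tdT- sdCAMs depended on scaling. In plain CPM the means after PBS and LPS were 1265 and 731 in tdT- and 1038 and 251 in tdT+ sdCAMs. After LPS tdT+ sdCAMs were thus lower than tdT- sdCAMs in 3 of 3 mice (-2.57, SE 0.485, adjusted p = 0.00265), the 1 member called where 10.6% of genes were. This rested on the library names. With the 2 libraries exchanged, the change in tdT+ sdCAMs was -1.0 (adjusted p = 0.47), the difference between tdT+ and tdT- sdCAMs was -0.90 (adjusted p = 0.936), and no gene of 12708 was called for the latter. Without both libraries the values were -2.62 (adjusted p = 0.0153) and -2.94 (adjusted p = 0.0135).

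The lowest Ms4a7 value, 51.85 CPM, was that of tdT+ mouse 5, the library with the MG markers. Without it the fall in tdT+ sdCAMs was -1.82 (adjusted p = 0.000724) and the difference from tdT- sdCAMs -2.06 (adjusted p = 0.00035). The interaction of tdT with LPS was -2.31 for Ms4a7 (SE 0.655, adjusted p = 0.0543), where 5.17% of genes were called, and -1.81 (adjusted p = 0.00836) without that library. It was -0.64 (adjusted p = 1) with the crossed libraries exchanged and -2.68 (adjusted p = 0.0753) without both.

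Ms4a4c rose in tdT- sdCAMs from 154.4, 41.48 and 90.03 CPM to 535.5, 646.3 and 319.6 CPM (2.39, SE 0.565, adjusted p = 0.00541), and had 368.2, 196.4 and 407.9 CPM in tdT+ sdCAMs after LPS (0.86, SE 0.541, adjusted p = 0.323). Ms4a6c rose in tdT- sdCAMs from 564, 508.3 and 510.5 CPM to 973.9, 8389 and 802.4 CPM (2.68, SE 0.671, adjusted p = 0.00764), a size set by mouse 5, since without that library it was 0.72 (adjusted p = 0.059). With the crossed libraries exchanged the rises in tdT- sdCAMs were 2.26 (adjusted p = 0.0341) for Ms4a4c and 2.65 (adjusted p = 0.0377) for Ms4a6c, and without both 2.32 (adjusted p = 0.0203) and 3.11 (adjusted p = 0.0047). In tdT+ sdCAMs Ms4a6c had 749.9, 570.2 and 530.6 CPM after PBS and 763.8, 968.9 and 775.4 CPM after LPS (0.44, SE 0.632, adjusted p = 0.704). Over both populations together Ms4a6c rose by 1.92 (adjusted p = 0.0239), with both libraries of each mouse taken as separate. It rose by 1.57 (adjusted p = 0.0647) with the counts of each mouse summed and by 0.62 (adjusted p = 0.0439) without tdT- mouse 5. Ms4a4c and Ms4a6d rose by 1.64 and 1.88 there, and all 3 calls held without the 2 crossed libraries, at adjusted p = 0.0417 for Ms4a4c, 0.016 for Ms4a6c and 0.000246 for Ms4a6d. In tdT- libraries the MG markers summed to 4878 to 4998 CPM after PBS and 253 to 550.4 CPM after LPS, and 3 of 6 neutrophil markers had counts after LPS, summing to 281 to 1502 CPM. The part of these in the results was not tested.

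Ms4a4a and Ms4a6b did not pass the test with LPS in reporter sdCAMs. Ms4a4a had 452, 406.8 and 419.3 CPM and then 586, 154.3 and 734.7 CPM in tdT+ sdCAMs (0.21, 95% interval -0.63 to 1.04), and 383.4, 468.3 and 405 CPM and then 271.9, 488.1 and 381.9 CPM in tdT- sdCAMs (-0.14, -0.98 to 0.69). The 154.3 CPM in tdT+ sdCAMs was that of mouse 5, the library with the MG markers. Mice 1 and 7 lay above every PBS value there. Ms4a6b had 959.3, 893.5 and 969.6 CPM and then 1093, 1212 and 1215 CPM in tdT+ sdCAMs (0.32, -0.23 to 0.87). In tdT- sdCAMs it had 789.1, 952.6 and 847.8 CPM and then 627.8, 1014 and 709.1 CPM (-0.14, -0.69 to 0.4).

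**Figure D4:**
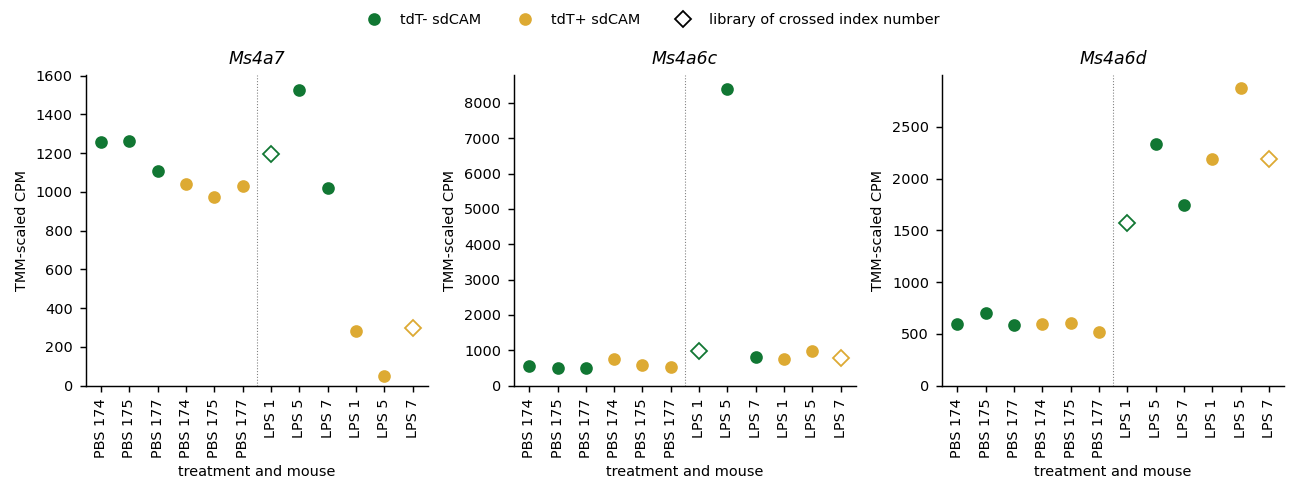
TMM-scaled CPM of Ms4a7, Ms4a6c and Ms4a6d in the 12 sdCAM libraries of reporter mice, with the treatment and mouse of each library on the x axis and tdT- before tdT+ within each treatment. Each point is 1 library, and open diamonds are the 2 libraries of crossed index number. Ms4a7 lies at 281.6, 51.85 and 299.7 CPM in tdT+ libraries after LPS, and Ms4a6c reaches 8389 CPM in 1 tdT- library.

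The ratio of Ms4a6c to Ms4a6d counts, which no scaling of libraries affects, separated the samples in another way. It was 0.0952 to 0.228 in the MG libraries without LPS and 0.229 to 0.389 in those after LPS, and 0.624 to 1.26 in sdCAMs without LPS. In Ccr2-/- sdCAMs it was 0.26 to 0.325 after LPS and in tdT+ sdCAMs, as the libraries are named, 0.336 to 0.353. In these groups Ms4a6d thus rose more than Ms4a6c. In WT sdCAMs after LPS it was 1.68, 3.19 and 1.69 in mice 1, 4 and 6 and 3.02 in mouse 12, all marked, but 0.392 and 0.328 in the unmarked mice 8 and 11. In tdT- sdCAMs after LPS it was 0.619, 3.59 and 0.459 in mice 1, 5 and 7. The 5 libraries with a ratio of 1.68 or more were those in which Saa3 took 21% to 35.8% of the counts. The tdT- libraries of mice 1 and 7 had Saa3 shares of 14.5% and 17.8%, and no other library exceeded 7.55%. The IEG correction mark, the share of Saa3 and the antisense transcript that overlaps Ms4a6c could each bear on this ratio, and their part was not tested.

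**Figure D5:**
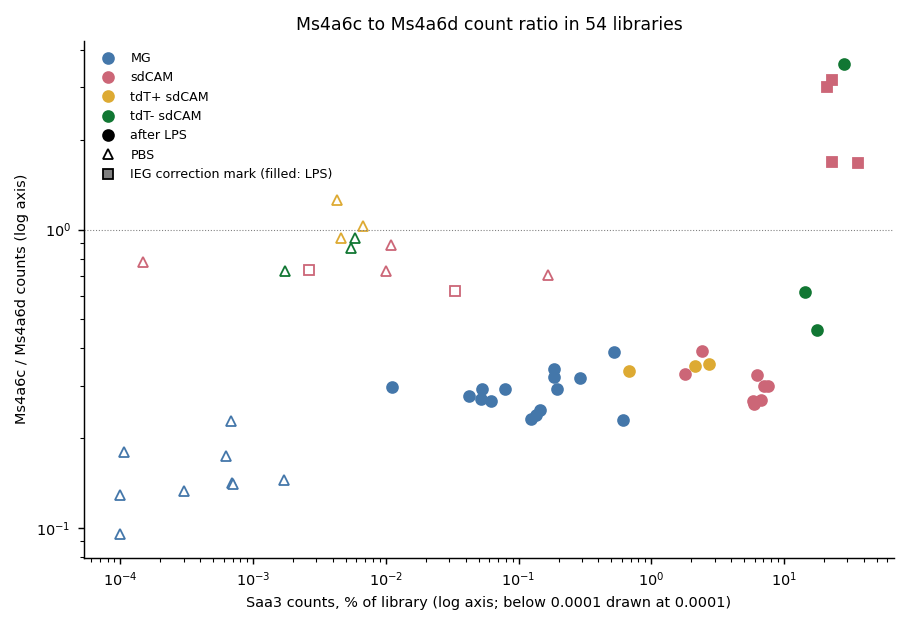
Ratio of Ms4a6c to Ms4a6d counts (log axis) against the percentage of library counts taken by Saa3 (log axis, with 8.91e-05 and 2.22e-05 drawn at its lower end) in 54 libraries. Colours are populations, filled points are libraries after LPS, open ones are PBS libraries, the dotted line is a ratio of 1, and squares are WT sdCAM libraries with the IEG correction mark. Of the libraries after LPS, the 5 with Saa3 at 21% or more have ratios of 1.68 to 3.59.

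Per length, the order of the members differed between the cells. Plain CPM was divided by the length of all annotated exons in GENCODE M21, which was 4453 bases for Ms4a7, 836 for Ms4a4a, 1751 for Ms4a4c, 4485 for Ms4a6b, 2050 for Ms4a6c and 1735 for Ms4a6d. Ms4a6d ranked first in each of the 8 MG groups, with 63% to 69.2% of the sum over the 6 genes, at 75.5 CPM per kb in untreated WT MG and 1262 after CTL+LPS. Resting sdCAMs had no such leader per length. Ms4a7 came first in WT (231 CPM per kb, 29.1% of the sum) and Ms4a4a in Ccr2-/- (657, 37.9%), tdT+ (522, 30.3%) and tdT- sdCAMs (524, 30.6%). Without regard to length, Ms4a7 had the highest mean of the 6 in each of these resting groups. It was 1095 TMM-scaled CPM in WT, 1298 in Ccr2-/-, 1015 in tdT+ and 1209 in tdT- sdCAMs. The exon lengths used need not be those of the transcripts expressed, and counting used another GENCODE release. After LPS, Ms4a6c came first in WT CTL sdCAMs (47.1%) and tdT- sdCAMs (38.4%), Ms4a4a in Ccr2-/- CTL sdCAMs (39.6%, with Ms4a6d at 39%) and Ms4a6d in the other 3 sdCAM groups (37.8% to 48.8%). The first place of Ms4a6c in tdT- sdCAMs rested on mouse 5, since without it Ms4a6d came first (641 CPM per kb, 39.6%) and Ms4a6c second (288, 17.8%). Ms4a4a came first in WT sdCAMs without untreated mouse 9 and Ms4a6d in Ccr2-/- CTL sdCAMs without mouse V4f. Ms4a7 ranked last in the LPS-treated sdCAM groups of Ccr2-/- mice, of WT mice given BLZ945 and of tdT+ cells.

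Over the 18 group means of log2(TMM-scaled CPM + 1), Pearson's r was 0.71 to 0.95 between pairs of Ms4a4a, Ms4a4c, Ms4a6b, Ms4a6c and Ms4a6d. Between Ms4a7 and each of these 5 it was 0.16 with Ms4a6d to 0.75 with Ms4a4a, so the ranges overlap. Within the 18 MG libraries of WT and Ccr2-/- mice, r among the 5 was 0.96 to 1, and within the 18 sdCAM libraries 0.35 to 0.98, lowest for Ms4a4a with Ms4a6c. Groups that share mice and treatments enter these values, which are a description.

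Among 10524 genes that reached 10 CPM in a group mean, the genes most like Ms4a7 over the 18 means were Cbr2 (r = 0.998), a carbonyl reductase also among the sdCAM markers used here, Mndal (0.988) and Mgst1 (0.987). For Ms4a4a they were Aoah (0.98), whose enzyme deacylates LPS, Cybb (0.977), a subunit of the phagocyte NADPH oxidase, and Ifi211 (0.969). For Ms4a4c they were Ifi209 (0.977), Milr1 (0.975) and Oasl1 (0.964), the first and last of which are interferon-induced. Ms4a6b was most like Ifi204 (0.965), Msr1 (0.961), a scavenger receptor, and Ptger4 (0.956), a prostaglandin E2 receptor. Ms4a6c was most like Milr1 (0.961), Ccl2 (0.95), a monocyte chemokine, and Zbp1 (0.948), a sensor of nucleic acids. Ms4a6d was most like Igsf6 (0.99), Ucp2 (0.975), a mitochondrial carrier, and Relt (0.968), a TNF receptor family member.

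Of 17 other genes of the family, the related Tmem176a and Tmem176b included, 7 reached 10 CPM in a library. After LPS 3 of 5 tested were called higher in WT MG, 2 of 4 in Ccr2-/- MG, 2 of 6 in WT sdCAMs, 4 of 7 in Ccr2-/- sdCAMs, 2 of 7 in tdT+, 3 of 7 in tdT- sdCAMs and 0 of 3 in reporter MG. Ms4a8a had 0 counts in untreated WT MG and WT sdCAMs and after LPS was at least 31.2-fold and 22.2-fold higher. Its rise was 4.86 in Ccr2-/- sdCAMs (SE 0.353, adjusted p = 7.54e-07) and 5.23 and 5.62 in tdT+ and tdT- sdCAMs. Ms4a14 had 0 counts in all untreated MG libraries and was at least 166-fold higher in untreated WT sdCAMs, at 43.6 to 73.5 CPM.

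Ms4a20 had 0 counts in sdCAMs without LPS and after LPS 19.8 to 147 CPM in WT CTL and 2.04 to 37.8 CPM in WT BLZ945 sdCAMs. Its levels after LPS were at most 5.73 CPM in CTL and 6.33 CPM in BLZ945 sdCAMs of Ccr2-/- mice. As the libraries are named, they were 7.53 to 68.1 CPM in tdT- and 0 to 2.82 CPM in tdT+ sdCAMs. Ms4a4b, a gene of T cells that shares 135 stretches of 50 bases with Ms4a4c, had 0 counts in untreated MG and 1.97 to 7.72 CPM in WT MG after LPS. The B cell gene Ms4a1 was at most 17.4 CPM, in 1 tdT- library after PBS. Tmem176b went the other way in MG, falling by 1.05 on the log2 scale in WT and in Ccr2-/- mice.

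Of 12 interferon-induced genes used for comparison, 6 were called higher with LPS in WT MG, 10 in Ccr2-/- MG, 2 in WT and 8 in Ccr2-/- sdCAMs, 0 of 11 tested in reporter MG and 4 in tdT- sdCAMs, while in tdT+ sdCAMs 0 were higher and 3 lower. All 5 genes of a list of LPS targets (Saa3, Lcn2, Il1b, Il1rn and Ccl5) were called higher in WT and Ccr2-/- MG and in Ccr2-/- sdCAMs, 3 in WT sdCAMs, 2 in reporter MG and 4 each in tdT+ and tdT- sdCAMs. For both lists, counts in tdT+ and tdT- sdCAMs are as the libraries are named.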

How the data were processed

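The authors deposited whole-number read counts per gene symbol for 54 libraries, made per the submitters' notes with bcl2fastq 2.20, STAR 2.7.11a and featureCounts 2.0.8 (GENCODE M36). Whether the genome was mm10 or GRCm39 was unclear, strand use is not given in the sources used here, and the single reads carried no molecular identifiers. The authors used DESeq2 1.46.0. Here the deposited counts were tested with edgeR 4.0.16 quasi-likelihood (glmQLFit and glmQLFTest, limma 3.58.1, R 4.3.3) with TMM scaling, filterByExpr and Benjamini-Hochberg adjustment over all genes of a comparison. Genes were called at an adjusted p below 0.05 with a log2 difference beyond 1 either way. All p-values given are two-sided and adjusted over all genes tested. DESeq2 1.42.0, other scalings and filters, left-out libraries and the mouse as a block were the alternatives.

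Library totals were 1705930 to 11330781 counts, and intervals on counts cover counting error only. For genes at 0 in a group, a floor of 3 counts per library gave lower bounds. Of 33280 symbols, 6948 had no count. No pair of libraries held identical columns. The scripts were tested on simulated data. The labels tie cell types to mice, so the numbers pair the samples. Deviations from group means of same-mouse libraries correlated at -0.0468 to 0.211 over 36 pairs. The 3 libraries of a group are 3 mice, and p-values measure the spread within groups, estimated over all groups of a fit. Fits that hold several libraries of a mouse, as for cell types and tdT states, took them as separate unless the mouse was a block. So did the test of tdT+ and tdT- sdCAMs together, for which the counts of each mouse were summed in place of a block. WT and Ccr2-/- libraries form one batch per the labels and reporter libraries another, and no comparison crosses them. The study's methods also name a ComBat-seq batch correction of the WT and Ccr2-/- data. Which batches it joined, and whether the deposited counts precede it, is not given in the sources used here, which bears on values set across these genotypes, the interaction of BLZ945 with genotype included. For Ccr2-/- libraries after LPS, titles name the other cell type than the cell type field and library name, which were followed.

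The members and the gene lists were chosen with earlier results of these data known. Text names all 6 members, other family genes that reached 10 CPM in a library, and for each member the 3 genes of highest Pearson r over 18 group means (10 CPM in a group mean, 1 CPM added before the log, unnamed gene models left out). Library totals without scaling, the library rich in MG markers left out, both crossed libraries left out of the joint fit, and ranks per length without each library were added after seeing the data.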

Additional observations from a re-analysis of the deposited data

Results flagged for a closer look

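Among the 6 reporter sdCAM libraries of each treatment, 12 sets of values (6 genes, 2 treatments) were examined for a library far from the rest, and 2 had one. The rule gives about 1 in 20 by chance for independent values of 1 normal distribution. These sets mix tdT+ and tdT- libraries of the same mice, so that rate need not hold for them. Ms4a6c stood at 8389 CPM in tdT- sdCAMs of mouse 5 after LPS, with a gap of 0.972 of the whole range, and at 749.9 CPM in tdT+ sdCAMs of mouse 174 after PBS, with a gap of 0.744.

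The log2 fold change with LPS differed between sdCAMs and MG by the interaction term of edgeR for several members, always smaller in sdCAMs. For Ms4a4a the log2 difference was -10.71 in WT, -6.2 in Ccr2-/- and -9 in reporter mice, values that rest on 0 to 8 counts in resting MG. For Ms4a6b it was -1.95 in Ccr2-/- and -3.19 in reporter mice, for Ms4a6c -3.33 and -3.28, and for Ms4a6d -2.07 in reporter mice. The call of Ms4a6c in reporter mice was lost with the crossed libraries exchanged and without MG of mouse 1 or 5 after LPS.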

How the results depend on the processing

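Of 2504 member values under alternatives, 2407 kept their side of the threshold, with the same direction where they were called, and 2 reversed. Direction was not compared for values called in neither fit. By library totals Ms4a6b (-1.53) and Ms4a6d (-1.14) were lower in sdCAMs than in MG of WT mice after LPS.

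DESeq2 called 5 members for LPS in WT sdCAMs and 5 in reporter MG (edgeR 3 and 3), 1 for BLZ945 in Ccr2-/- MG and 1 for tdT by LPS (0 and 0). It gave no adjusted p for Ms4a6c in 6 reporter sdCAM comparisons. The IEG correction mark as a covariate gave 5 in WT sdCAMs. Without a filter on low counts, 5 were called in reporter MG, 1 for BLZ945 in WT MG, 1 in Ccr2-/- MG, 2 for cell type by LPS in WT mice (1 with the filter), 2 for tdT after LPS (1) and 2 for tdT by LPS (0). Median-of-ratios scaling gave 2 for tdT after LPS and 1 for tdT by LPS. Library totals gave 4 for cell type by LPS in WT mice, 4 for tdT after LPS and 2 for tdT by LPS. Without a fold limit 5 were called between cell types after LPS in Ccr2-/- mice (3). With the crossed libraries exchanged, 1 was called for LPS in tdT+ sdCAMs (2) and 0 for tdT after LPS, also 0 with the mouse as a block. Without the library rich in MG markers 1 was called for tdT by LPS. The cause was not tested.

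With the counts of each mouse summed, Ms4a6c in reporter sdCAMs together was 1.57 (adjusted p = 0.0647). With the mouse as a block (replicate block), Ms4a6d between resting WT cells was 1.36 (0.0573). Ms4a4c in reporter mice was then 1.90 (0.0168) between cell types after LPS and -3.90 (0.00518) for the interaction. The block changed no other call as the libraries are named.

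Leaving out 1 library gave 5 to 5 calls for LPS in WT and in Ccr2-/- MG, 1 to 3 in WT sdCAMs, 5 to 6 in Ccr2-/- sdCAMs, 0 to 5 in reporter MG, 2 to 2 in tdT+, 2 to 3 in tdT- sdCAMs and 2 to 3 in both together. It gave 5 to 6 for cell type in resting WT mice, 6 in the other resting mice, and 4, 3 and 2 after LPS. The interaction gave 1 to 1, 3 to 4 and 3 to 5. BLZ945 gave 0 to 1 in WT sdCAMs and by genotype in sdCAMs and 0 elsewhere, and tdT gave 0 after PBS, 1 to 2 after LPS and 0 to 1 by LPS.

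By library totals the share of called genes that were higher went from 54.1% to 14.9% for cell type after LPS in WT mice, from 50.6% to 34.7% in Ccr2-/- and from 61.3% to 24.3% in reporter mice. It went from 54.8% to 25% for LPS in tdT-, from 56.4% to 70.5% in tdT+ sdCAMs, from 61% to 72.1% in reporter MG and from 35.1% to 87.4% for tdT after LPS. With 3 mice a group and 0 to 8 counts of Ms4a7 or Ms4a4a in several MG groups, fold changes of these genes are imprecise.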
